A study of Mus musculus with 6 samples.

Results

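A set of 10 array entries that carry miRNA names but are grouped here as ribosomal, transfer RNA-derived or GC-rich was followed in MCT, an established line of renal tubular cells from mice of the SJL H-2S background. They are mmu-miR-712, mmu-miR-714, mmu-miR-689, mmu-miR-690, mmu-miR-709, mmu-miR-720, mmu-miR-805, mmu-miR-685, mmu-miR-705 and mmu-miR-1224 (written below without the species prefix), which are 10 of the 611 mouse entries on the array. They were found by name, after removal of the version suffix that the array adds to some names, and all 10 were present, read by 30 probes and 200 spots. The names were chosen by measured values as well: the processed signal and the background flag of their spots on these same arrays were known when they were selected, so every level and difference between the groups below is a description and not a test of them.

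The cells given TGFβ received it at 3 ng/ml for 3 days (3 arrays, TGFβ 1 to 3), and the control cells had no TGFβ listed (3 arrays, control 1 to 3). All were grown with 10% fetal calf serum, and the protocol places a change to 0.5% serum ahead of the TGFβ. Cy3 label was attached to RNA from 100 ng of total RNA per array. The labels give no sign that replicates were separate cultures, so the spread between arrays may be technical, and a single cell line limits how far the values reach.

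A miRNA is a short RNA cut from a hairpin precursor that guides Argonaute proteins to messenger RNAs through its seed, the bases near its 5′ end. Ribosomal and transfer RNAs are far more abundant than any miRNA, and breakdown or regulated cleavage of them leaves short pieces, some of which were first catalogued as miRNAs and later withdrawn. Labelling by ligation of Cy3-pCp to RNA 3′ ends does not by itself tell such pieces from miRNAs, and in kidney as elsewhere the short-RNA pool holds both. Among the 10, miR-712 is known in mouse as a product of ribosomal precursor RNA that rises in endothelium under disturbed flow, miR-720 is known as a transfer RNA fragment, miR-709 is a partly nuclear mouse miRNA that was shown to hinder maturation of miR-15a and miR-16-1, and miR-1224 is a mirtron, a hairpin that is itself a short spliced intron.

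The label could be set against sequence for only 3 of the 10 entries (30%), those with a mature sequence in the RefSeq table (build GRCm38.p6), so no base composition is given for the group as a whole. Of the sequences below, miR-705 and miR-1224-5p are both rich in G, and miR-690 is not. Capitals mark the seed, bases 2 to 8.
miR-705: gGUGGGAGguggggugggca
miR-1224-5p: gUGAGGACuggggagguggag
miR-1224-3p: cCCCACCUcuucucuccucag
miR-690: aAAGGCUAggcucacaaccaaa
The array name miR-1224 does not say which arm it means, and both arms are shown. GC content was 75% in miR-705, 66.7% in miR-1224-5p, 61.9% in miR-1224-3p and 45.5% in miR-690, against a median of 50% over the 182 array entries whose names matched a RefSeq mature sequence exactly. miR-690 therefore does not carry the GC-rich label on its sequence. G alone made up 70% of miR-705 and 61.9% of miR-1224-5p, both with a run of 4, and no seed was shared. GGGG was found on the mature strand of 16 of the 182 matched entries (8.79%).

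miR-705 lies at chr6:85336341-85336360 on the minus strand within the span of Rab11fip5, miR-690 at chr16:28599940-28599961 on the minus strand within that of Fgf12, and the miR-1224 hairpin at chr16:20604452-20604536 on the plus strand within that of Vwa5b2. The hairpin is shown because its ends are the GU and AG of a spliced intron (in capitals), as a mirtron requires.
Mir1224 hairpin: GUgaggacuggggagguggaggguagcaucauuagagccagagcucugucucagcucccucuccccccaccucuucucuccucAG
The gene of miR-709, Mir709, lies within the span of Rfx1.

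A spot is well above background by the flag of Feature Extraction, a probe if at least a 0.5 share of its spots are, and an entry if any of its probes is. By that rule 6 of the 10 entries were well above background on TGFβ 1 and 5 each on TGFβ 2 and TGFβ 3, against 5 on control 1 and 3 each on controls 2 and 3. Of all 611 entries, 16.9% were on TGFβ 1, 14.6% on TGFβ 2 and 14.1% on TGFβ 3, against 14.1% on control 1, 12.3% on control 2 and 12.1% on control 3. miR-709, miR-720 and miR-1224 were well above background on all 6 arrays. miR-714 and miR-689 were on the 3 TGFβ arrays and on control 1, and miR-712 was on TGFβ 1 alone. miR-690, miR-805, miR-685 and miR-705 were on none, and no fold is given for them.

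Control 1 lay apart from the other controls and some entries were far higher on TGFβ 1 than on any other array, so the main differences below are given with and without them. Control 1 lay nearer to the TGFβ arrays (median absolute log2 difference 0.26, 0.21 and 0.16 from TGFβ 1, 2 and 3, over the 84 entries tested) than to controls 2 and 3 (0.48 and 0.52). Controls 2 and 3 lay 0.06 from each other and between 0.42 and 0.58 from the TGFβ arrays. On control 1 the labelling spike-in signal was lower (log10 1.82, against 2.09 to 2.14 on the other arrays). TGFβ 1 carried 15 entries that were well above background on it and read at least 2 log2 units above every other array, and by the same rule no other array carried any. Of the renal epithelial and tubular marker list, 3 of 12 (miR-10a, miR-10b and miR-196a) were well above background, on all 6 arrays, while the miR-200 family, miR-192, miR-194, miR-215 and miR-204 were not on any. Of mesenchymal, smooth muscle, blood and endothelial markers, 0 of 3, 0 of 2, 0 of 6 and 0 of 2 were. Of 7 markers of other tissues 1 was, miR-206, known from skeletal muscle, which read 4.64, 4.83 and 4.43 on TGFβ 1, 2 and 3, against 4.52, 3.79 and 3.78 on controls 1, 2 and 3. It passed the background rule on the same arrays as miR-689 and miR-714, which are TGFβ 1 to 3 and control 1. After scaling, the dimmest probe that passed read 30.3 and 36.4 on controls 2 and 3, against 19.45 to 21.7 on the other arrays. The rule may therefore not be equally strict on all arrays.

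**Figure D1:**
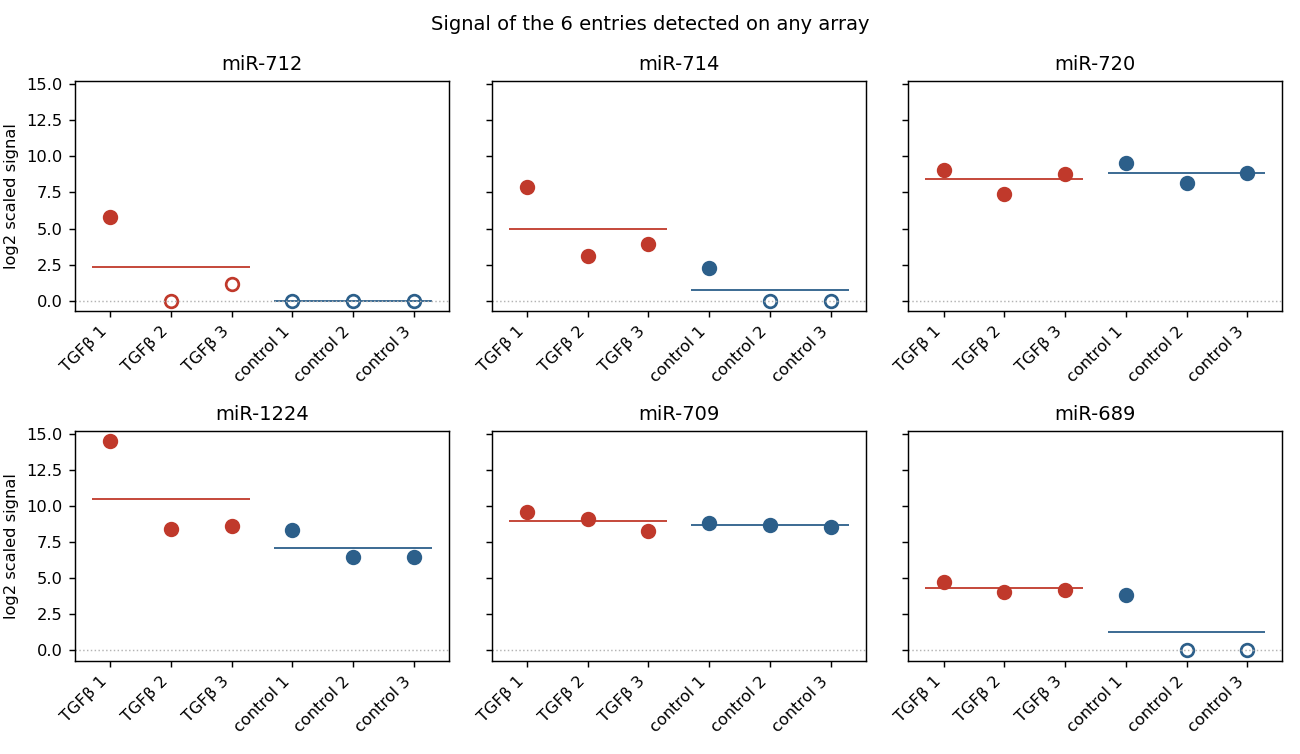
Log2 scaled signal (vertical axis) on each array for the 6 entries detected above background somewhere; filled points are arrays where the entry was well above background, open points where it was not, and lines are group means of 3 arrays. miR-1224, miR-714 and miR-712 stand highest on TGFβ 1, miR-689 and miR-714 are open on controls 2 and 3, and miR-709 and miR-720 overlap between the groups.

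miR-1224 gave the largest signal of the 10 on TGFβ 1. On the log2 scale, after scaling each array to its 75th percentile, it read 14.48, 8.40 and 8.64 on TGFβ 1, 2 and 3, against 8.31, 6.48 and 6.45 on controls 1, 2 and 3. TGFβ 1 stood far above all others, control 1 read close to TGFβ 2 and TGFβ 3, controls 2 and 3 were lowest, and the groups did not overlap. The means were 10.51 ± 3.45 in TGFβ-treated and 7.08 ± 1.06 in control cells (SD, n = 3 each), a log2 difference of 3.43 (SE 1.70). That difference was 1.44 (SE 0.63) without TGFβ 1, 4.04 (SE 1.98) without control 1 and 2.06 (SE 0.13) without either. The SE of 0.13 follows from removing the array of each group that lay furthest from its fellows, so it does not measure precision. Within slide column 1, TGFβ 2 minus control 1 was 0.09, and within column 2, TGFβ 3 minus control 2 was 2.16. The last 2 values show a difference of about 2 log2 units against control 2 and almost none against control 1.

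This one entry held 47.0% of the summed mouse signal on TGFβ 1. Its share was 1.64% on TGFβ 2 and 1.94% on TGFβ 3, against 1.5%, 0.454% and 0.429% on controls 1, 2 and 3. All 10 entries together held 50.3%, 5.31% and 5.73% on TGFβ 1, 2 and 3, against 7.23%, 3.98% and 4.54% on controls 1, 2 and 3. Outside TGFβ 1, miR-709, miR-720 and miR-1224 made up most of these shares.

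The excess of miR-1224 on TGFβ 1 was spread over its spots. All 20 spots were well above background there, each of the 20 was brighter than any spot of its probe elsewhere, and they lay from row 16 to row 182 of 192 and from column 1 to column 80 of 82. The brighter probe read 15.23 on TGFβ 1 (spot CV 2.28%), 9.25 on TGFβ 2 and 9.47 on TGFβ 3, against 9.17, 7.37 and 7.38 on controls 1, 2 and 3. The dimmer probe read 12.85, 6.00 and 6.47 on TGFβ 1, 2 and 3, against 5.85 on control 1, and was not well above background on controls 2 and 3. TGFβ 1 exceeded the mean of TGFβ 2 and 3 by 58.4-fold on the brighter probe and 98-fold on the dimmer one, so both probes showed the excess with unequal size.

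**Figure D2:**
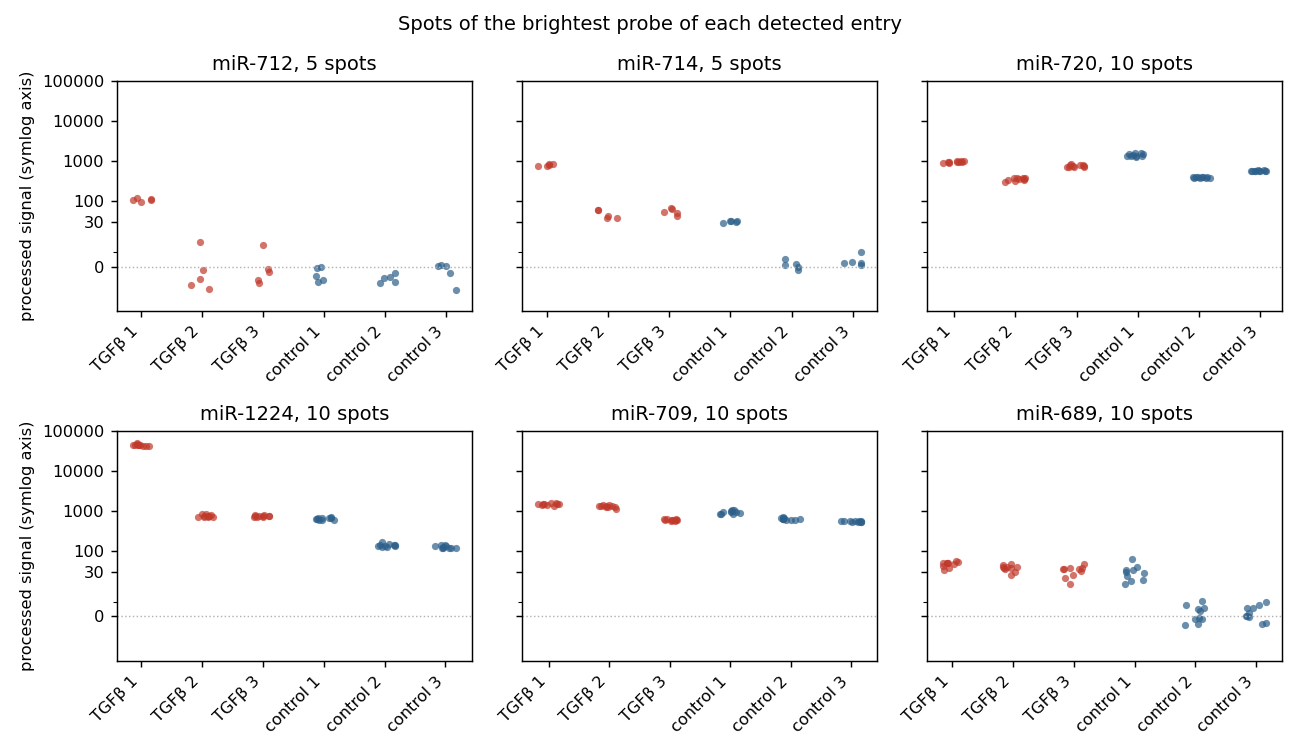
Processed signal of single spots (vertical axis, linear below 30 and logarithmic above) on the 6 arrays, for the probe of each entry with the highest mean signal. For miR-1224, miR-714 and miR-712 every spot on TGFβ 1 lies above every spot on the other arrays, and the spots of miR-689 and miR-714 lie near 0 on controls 2 and 3.

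miR-714 was dim except on TGFβ 1. It read 7.88, 3.08 and 3.91 on TGFβ 1, 2 and 3, against 2.24 on control 1 and the floor of 0 on controls 2 and 3, where the mean over its probes was below 0 before the floor was set. TGFβ 1 was highest, control 1 lay just below TGFβ 2, and the groups did not overlap. The means were 4.95 ± 2.56 in TGFβ-treated and 0.75 ± 1.30 in control cells (SD, n = 3 each), and the log2 difference of 4.21 (SE 1.36) depends on the floor. It was 2.63 with a floor of 5, 0.58 with normexp background correction, 2.75 without TGFβ 1, 4.95 without control 1 and 3.49 without either, and the slide columns gave 0.84 (column 1) and 3.91 (column 2).

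Only 1 of the 4 miR-714 probes carried the signal on most arrays. It read 9.47, 5.29 and 5.76 on TGFβ 1, 2 and 3, against 4.83 on control 1, and was not well above background on controls 2 and 3. On TGFβ 1 it exceeded the mean of TGFβ 2 and 3 by 15.47-fold. A second probe was well above background on TGFβ 1 alone (7.71), and the other 2 were on no array.

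miR-712, the ribosomal precursor product, was well above background on TGFβ 1 alone. Its mean signal there, before scaling, was 61.7, and it was -3.56 on TGFβ 2 and 2.28 on TGFβ 3, against -3.83, -6.62 and -2.76 on controls 1, 2 and 3. One array is high and the other 5 lie around 0. All 4 probes and all 20 spots were well above background on TGFβ 1, with spots between 32.0 and 119.3, and 18 of the 20 were brighter than any spot of their probe elsewhere. On TGFβ 3, 2 of 5 spots of 1 probe were also flagged. Set against the dimmest probes well above background, the entry gave no fold between the groups.

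miR-689 was dim, and its pattern did not rest on TGFβ 1. It read 4.71, 4.06 and 4.22 on TGFβ 1, 2 and 3, against 3.84 on control 1 and the floor of 0 on controls 2 and 3. The 3 TGFβ arrays and control 1 lay together, apart from the other controls, and the groups did not overlap. The means were 4.33 ± 0.34 in TGFβ-treated and 1.28 ± 2.22 in control cells (SD, n = 3 each), a log2 difference of 3.05 (SE 1.06). It was 2.86 without TGFβ 1, 4.33 without control 1 and 4.14 without either, while within slide column 1 it was 0.22 and within column 2 it was 4.22. The level in controls 2 and 3 is not known below background, and a floor of 5 gave 1.5 and normexp 0.03.

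On miR-689 a single probe of the pair carried the signal. All 10 of its spots were well above background on TGFβ 1 and on TGFβ 2, and 9 on TGFβ 3, against 7 on control 1 and 0 on controls 2 and 3. Its value on TGFβ 1 was 1.30-fold the mean of TGFβ 2 and 3. None of these 10 spots on TGFβ 1 was brighter than every spot of the probe elsewhere, since 1 spot on control 1 read 62.3. That spot carried an outlier flag and was left out of the means. Among spots without outlier flags, the brightest read 56.4, 47.7 and 48.3 on TGFβ 1, 2 and 3. On controls 1, 2 and 3 the brightest read 40.9, 10.5 and 10.0. The other probe had no spot well above background on any array.

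miR-709 was well above background throughout, and its groups overlapped. It read 9.56, 9.13 and 8.25 on TGFβ 1, 2 and 3, against 8.79, 8.66 and 8.57 on controls 1, 2 and 3. The controls lay close together, and the TGFβ arrays lay on both sides of them. The means were 8.98 ± 0.67 in TGFβ-treated and 8.67 ± 0.11 in control cells (SD, n = 3 each), a log2 difference of 0.31 (SE 0.34) when all arrays were used. It was 0.02 without TGFβ 1, 0.67 (SE 0.22) without TGFβ 3 and 0.37 without control 1. Blocking slide column gave -0.03, which rests on TGFβ 2 and 3 and controls 1 and 2, since TGFβ 1 and control 3 stand alone in their columns. Blocking slide row gave 0.89, with TGFβ 1 alone on the TGFβ side, and leaving out the scaling gave 0.66. On TGFβ 1 the probes disagreed, 3.34-fold above the mean of TGFβ 2 and 3 on the dimmer probe and 1.72-fold on the brighter one.

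miR-720, the transfer RNA fragment, was highest on control 1. It read 9.03, 7.40 and 8.77 on TGFβ 1, 2 and 3, against 9.55, 8.16 and 8.81 on controls 1, 2 and 3. TGFβ 2 was lowest, control 1 highest, and the groups overlapped. The means were 8.40 ± 0.88 in TGFβ-treated and 8.84 ± 0.69 in control cells (SD, n = 3 each), a log2 difference of -0.44 (SE 0.54). It was -0.09 without control 1, -0.76 without TGFβ 1 and -0.41 without either, its sign turned to 0.06 without TGFβ 2, and the slide columns gave -2.15 (column 1) and 0.60 (column 2). It is the detected entry on which control 1 lay furthest above TGFβ 2 and 3, by 1.47 log2 units over their mean.

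The entries below background are accounted for as follows. miR-690, which in mouse has been described as an insulin-sensitising cargo of macrophage vesicles, had no spot well above background on any array, and neither had miR-685. miR-805 had 1 flagged spot of 20, on TGFβ 3. miR-705 had 1 on TGFβ 1 and 1 on control 2, and its mean signal was 11.0, 2.33 and 0.85 on TGFβ 1, 2 and 3, against 0.19, -3.85 and -0.15 on controls 1, 2 and 3. miR-705, the richest in G of the sequences above, was thus near 0 on most arrays. The gene-level detection flag of Feature Extraction called it on TGFβ 1.

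The 5 entries well above background on all arrays of a group (miR-714, miR-689, miR-709, miR-720 and miR-1224) were fitted with the other tested entries. In limma 0 of 84 passed an adjusted p of 0.05 (0%), so 0 of these 5 did, and 8 of 84 had an unadjusted p under 0.05. TGFβ arrays lay wholly above controls for 3 of the 5 (miR-714, miR-689 and miR-1224) and for 7 of the 84 (8.33%), and wholly below for 0 of the 5 and for 5 of the 84 (5.95%). The names were picked with this contrast known, and miR-714 and miR-689 entered through the TGFβ group alone, so nothing is read from these counts. With the replicate number as a block 1 of 84 passed (1.19%), which was miR-714 (limma adjusted p = 0.00291, and between 0.00291 and 0.976 over the alternatives). miR-714 reads the floor of 0 on controls 2 and 3, and the pairing was taken from these same data, so nothing is read from this call. The median log2 difference of all 10 entries was 0.91, against 0 over all 611. Without TGFβ 1 it was 0.24, against 0 over all 611, and with normexp -0.06, against -0.26 over all 611. The median of 0.91 falls between miR-685 and miR-705, which were below background on every array. Of all 611 entries only 107 were well above background on any array. Values below background depend on the floor or the background correction, so nothing is read from these medians.

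**Figure D3:**
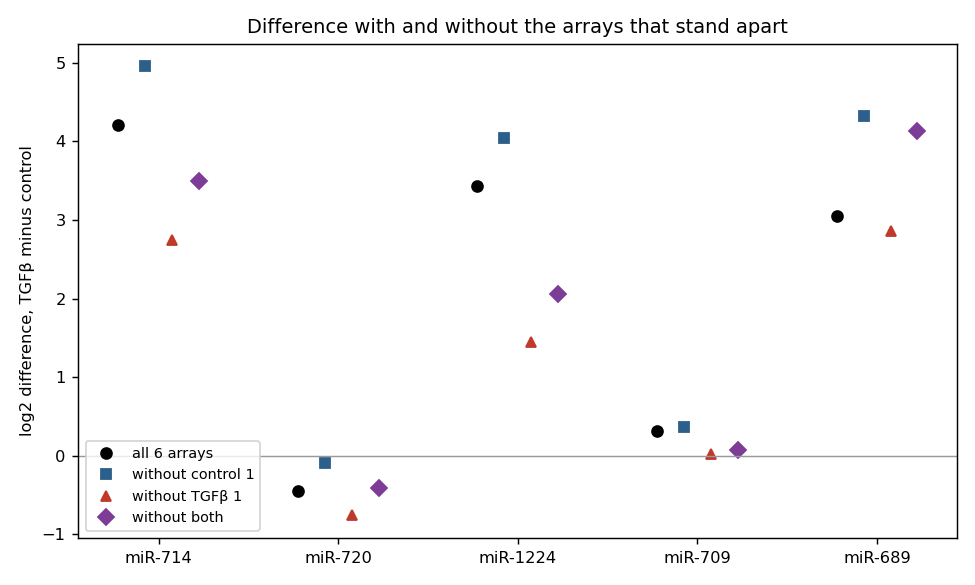
Log2 difference, TGFβ minus control (vertical axis), of the 5 tested entries with all 6 arrays and without control 1, TGFβ 1 or both. The miR-1224 difference moves between 1.44 and 4.04, that of miR-689 between 2.86 and 4.33, and those of miR-709 and miR-720 stay within 1 log2 unit of 0.

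By the rule that an entry is well above background on an array and at least 2 log2 units above every other array, TGFβ 1 carried 3 of the 10 entries (miR-1224, miR-714 and miR-712), against 15 of all 611 (2.45%). miR-705 read 2.38 above the highest other array but was not well above background. The excess over the highest other array was 5.84 for miR-1224, 4.65 for miR-712 and 3.97 for miR-714, while miR-689 (0.50), miR-709 (0.43) and miR-720 (-0.52) lay near or below it. After scaling, the tested entries outside the 15 lay on TGFβ 1 at a median of -0.03 log2 units from the mean of the other arrays. The brightest 5 of the 12 other carried entries were miR-494 (11.62), miR-574-5p (7.81), miR-188-5p (6.81), miR-135a-1* (6.81) and miR-1895 (6.80). Of the 12, 7 have a RefSeq mature sequence of the same name, and they are shown because their base composition differs widely (seed in capitals).
miR-188-5p: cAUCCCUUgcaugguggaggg
miR-1895: cCCCCGAGgaggacgaggagga
miR-671-5p: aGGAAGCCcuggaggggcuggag
miR-680: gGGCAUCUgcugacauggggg
miR-574-5p: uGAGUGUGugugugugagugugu
miR-1187: uAUGUGUGuguguauguguguaa
miR-467f: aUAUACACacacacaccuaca
GC content was 61.9% in miR-188-5p, 72.7% in miR-1895, 69.6% in miR-671-5p and 66.7% in miR-680, but 47.8% in miR-574-5p, 34.8% in miR-1187 and 38.1% in miR-467f, which hold runs of alternating bases. GGGG stood in 2 of the 7, against the 8.79% given above. UGUGUG stood in 2 of the 7 and in 3.30% of the 182 matched array entries, and ACACAC in 1 of the 7 and also in 3.30% of the 182. Among these 7, GC-rich sequence was one of several kinds. The rest of the 12, miR-494 among them, had no RefSeq sequence of the same name to compare.

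**Figure D4:**
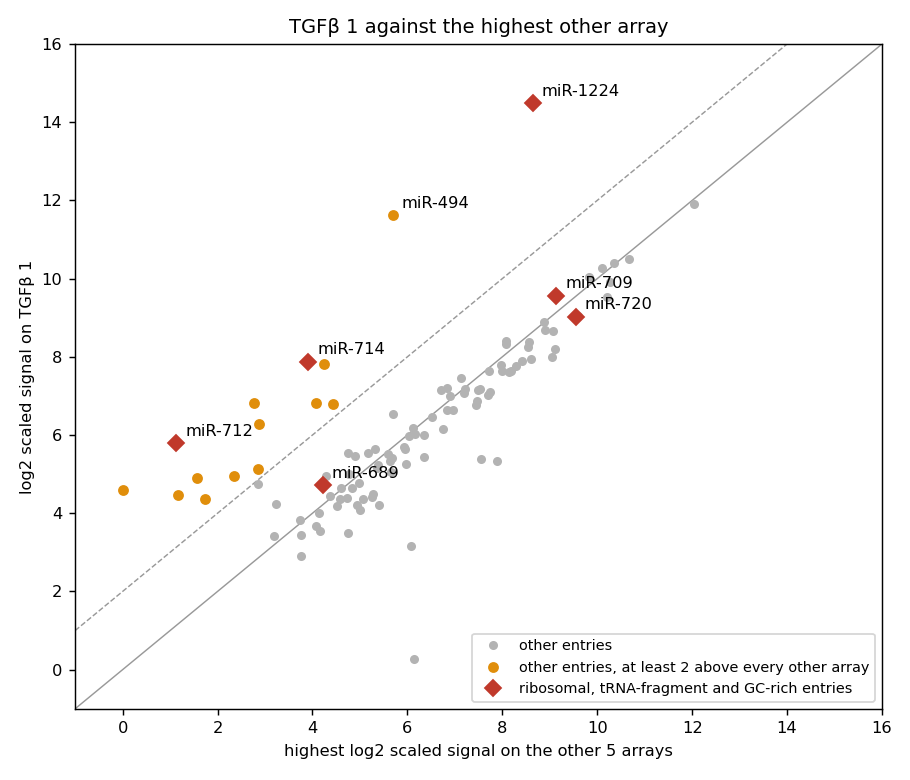
Log2 scaled signal on TGFβ 1 (vertical axis) against the highest log2 scaled signal on the other 5 arrays (horizontal axis), for the 107 entries detected above background somewhere; the solid line is equality and the dashed line an excess of 2. miR-1224, miR-714 and miR-712 lie above the dashed line with 12 other entries, and miR-689, miR-709 and miR-720 lie near equality.

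Profiles over the 6 arrays were compared by the root mean square (RMS) difference of centred log2 values. The comparison was with 83 other entries, those well above background on at least 3 arrays. That filter left out most of the 12 other entries that TGFβ 1 carried, but kept miR-494 and miR-1895. The nearness of these to miR-1224 and miR-714 is therefore not independent of the excess on TGFβ 1. miR-494 lay nearest to miR-1224 (0.46, where the profile of miR-1224 itself had an RMS spread of 2.70) and nearest to miR-714 (0.81), and miR-1895 came next for both (1.39 and 1.44). For miR-689 they were miR-1895 (1.25) and miR-34c (1.36), for miR-709 miR-182 and miR-93 (0.24 each), and for miR-720 miR-29b (0.45) and miR-18a (0.50). miR-494 read 11.62, 4.26 and 5.69 on TGFβ 1, 2 and 3, against 4.68, 2.64 and 2.81 on controls 1, 2 and 3.

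The other entries numbered miR-680 to miR-721, apart from miR-708, were 34, and 4 of them were well above background on any array. They were miR-680, miR-715 and miR-721, each on TGFβ 1 alone, and miR-697 on TGFβ 2 and control 1. Of 16 further entries on the array that were listed as fragment-like or GC-rich, 5 were. They were miR-1187, miR-1894-3p, miR-1897-5p and miR-671-5p on TGFβ 1 alone and miR-1895 on TGFβ 1, TGFβ 2 and control 1. With a GC content of 34.8%, miR-1187 does not carry the GC-rich label on its sequence. By comparison 17.5% of all 611 entries were well above background on some array. None of these 9 was well above background on controls 2 and 3.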

How the data were processed

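miRNA was measured on 6 one-colour Agilent arrays. Each deposited file gives the Cy3 intensity of every spot after the authors' background subtraction in Agilent Feature Extraction (version 10.7.3.1 per the file headers, 10.1.1 per the submitters' processing notes), not scaled between arrays. The deposited value table held the same intensity (largest absolute difference 0). Other deposited columns are 0 or 1 flags and spot positions, per the file headers. Saturation flags were 0 throughout.

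Spots without outlier flags were averaged per probe, and probes per entry. Arrays were scaled by the 75th percentile over 105 probes (those well above background on each of the 6), a floor of 1 was set and log2 taken. Entries well above background on all 3 arrays of a group (84) were fitted with limma 3.58.1 in R 4.3.3 (two-sided, Benjamini-Hochberg), which was tested on simulated data. Same-numbered arrays deviated together (r = 0.38, 0.37 and 0.52 over 84 entries), so the replicate block is given where it changes a call. The pairing is not in the labels. Slide row and column come from the file headers. The number of arrays limits the precision.

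Members and lists were chosen with earlier results of these data known. All 10 members are named, further entries by detection, by profile (the nearest 2 per member) or by signal on TGFβ 1 (the brightest 5). RefSeq (GRCm38.p6) gave sequences, and the headers name mm9. Alternatives changed scaling, background, floor, probe summary, filter, blocks and arrays. Normexp used median spot signal with an offset of 50. Leaving out control 1 and TGFβ 1 together was chosen after seeing the data.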

Additional observations from a re-analysis of the deposited data

How the results depend on the processing

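The number of entries passing in limma was 0 of 84 and stayed 0 under every change of scaling, background correction, floor, probe summary, filter and with a slide column block, with 2 to 21 entries at an unadjusted p under 0.05 in these fits. It was 1 of 84 with the replicate block (miR-714, the block changed no other call). That fit also uses the floor of 0 for miR-714 on controls 2 and 3, so nothing is read from the call. It was 36 of 85 without control 1 and TGFβ 1 together (miR-1224, miR-689 and miR-714 passed). In that fit calls were common among all tested entries, so the member calls do not set these names apart. Blocking slide row compares only TGFβ 1 with the controls, so no count is given for it. Leaving out 1 array gave between 0 and 29, with 29 of 85 (34.1%) without control 1 (miR-689 passed) and 0 for each other array. These fits drop the array that departs from its group, and their p-values and SEs do not allow for that choice. Once control 1 is left out, miR-689 and miR-714 read the floor of 0 on both remaining controls. Their control spread is then set by the floor, so nothing is read from their calls. Of 19 alternatives, the log2 differences of miR-1224, miR-714, miR-689 and miR-712 kept their sign in 19, that of miR-709 in 18 and that of miR-720 in 17. The replicate block and the changes of filter leave every difference as it is, so they could turn no sign. For miR-1224, miR-714 and miR-689 the groups do not overlap in the main values. Leaving out arrays or blocking slide row or column could therefore not turn their signs either. In the main values miR-712 reads the floor of 0 on all controls. Its difference could not fall below 0 in any fit that uses those values. miR-709 turned to -0.0309 with the slide column block, and miR-720 to 0.1875 with the slide row block and 0.0557 without TGFβ 2 (with 1 array left out, miR-720 ranged from -0.78 to 0.06). The cause was not tested. Differences ranged from 1.13 to 7.41 for miR-1224, from 0.58 to 7.13 for miR-714 and from 0.03 to 4.33 for miR-689. With any spot counted, 5 of the 10 entries were well above background on control 2, against 3 by the main rule. Values of miR-712, miR-714 and miR-689 near background depend on the floor, and the normexp offset of 50 shrinks them by construction.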

Other observations

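The array adds a version suffix to the names of 9 of its 611 mouse entries. Its number is read here as a release of the miRNA catalogue, and why only these names carry it was not tested. Among the entries described above are 3 of these 9 (miR-685 and miR-805 with 14, miR-689 with 15). Of the 9, 1 (miR-689) was well above background on any array, and of the other 602 entries 106 were (17.6%).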
